A study of Mus musculus with 32 samples.

Results

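Mitotic spindle, kinetochore and G2/M genes are the genes whose products take a cell from the end of DNA replication through chromosome segregation to division. A fixed list of 46 such genes was followed here, 46 of the 49671 gene IDs in the count table. They were chosen by what their products do, without a threshold on a measured value, but with earlier results of these data known. RNA-seq was run on cortical neurons prepared from the forebrain of wild-type (WT) C57BL/6 mouse embryos at embryonic day 17 to 18 and kept in serum-free Neurobasal medium with B27. The cultures were left untreated or were exposed through the medium to 10 µg/mL of an oligoribonucleotide, for 6 h or for 5 d, and each of the 8 groups held 4 libraries, 32 in all. The oligoribonucleotides were miR-92a-1-5p and, as a further microRNA associated with Alzheimer's disease, miR-124-5p, and Mut.oligo, a mutated form of let-7b that served as a control for sequence. All neurons were WT, so that every group shared that genotype, and each library was a mixture of whatever cells the culture held. The labels also gave each library an experiment batch. There were 7 batches at 6 h and 6 at 5 d, and 0 of them held both time points.

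Entry into mitosis is driven by CDK1 bound to cyclin A2 and the B-type cyclins. Chromosomes then attach to spindle microtubules through kinetochores, Aurora kinases correct wrong attachments, and a checkpoint holds the anaphase-promoting complex until attachment is complete. Postmitotic neurons do not divide, and in a young cortical culture most of these transcripts mark the cells that still cycle, such as neural and glial progenitors. In cycling cells many of these genes are switched on together late in the cell cycle, through promoter elements named CHR (cell cycle genes homology region), bound by MuvB complexes, and CCAAT boxes, bound by NF-Y.

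Mature miR-92a-1-5p is shown because a microRNA pairs with its targets mainly through the seed, here bases 2 to 8 in capitals. It lies at chr14:115044437-115044459 on the plus strand of GRCm38.p6 and its sequence is that of RefSeq.
miR-92a-1-5p: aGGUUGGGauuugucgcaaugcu

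Promoter sequences are shown for 6 members, since most of the list shares elements there. Each is the RefSeq gene's strand of GRCm38.p6 from 150 bases before its start to 30 after it. Capitals mark the CHR letters TTTGAA or TTCGAA and the letters CCAAT, each on either strand. Top2a, Cdca8 and Kif23 were among the members with the smallest p at 5 d after miR-92a-1-5p, and Melk was another of them that had neither element in this stretch. Cks1b and Hjurp differed least in that comparison with the batch as a covariate. The stretches are Top2a at chr11:99024160-99024339 (minus strand), Cdca8 at chr4:124936888-124937067 (minus strand), Kif23 at chr9:61946770-61946949 (minus strand), Melk at chr4:44300767-44300946 (plus strand), Cks1b at chr3:89418262-89418441 (minus strand) and Hjurp at chr1:88277550-88277729 (minus strand).
Top2a: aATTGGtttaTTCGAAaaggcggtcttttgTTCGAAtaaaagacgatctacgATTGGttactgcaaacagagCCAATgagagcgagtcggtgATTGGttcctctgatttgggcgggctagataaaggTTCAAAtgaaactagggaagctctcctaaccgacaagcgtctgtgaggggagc
Cdca8: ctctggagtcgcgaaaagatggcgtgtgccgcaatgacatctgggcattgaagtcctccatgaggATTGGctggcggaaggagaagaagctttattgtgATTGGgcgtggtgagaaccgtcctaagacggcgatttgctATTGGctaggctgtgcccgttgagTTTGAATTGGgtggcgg
Kif23: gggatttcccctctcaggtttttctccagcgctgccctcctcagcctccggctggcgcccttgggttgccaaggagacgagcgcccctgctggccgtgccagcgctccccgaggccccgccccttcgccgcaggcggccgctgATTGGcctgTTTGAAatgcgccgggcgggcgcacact
Melk: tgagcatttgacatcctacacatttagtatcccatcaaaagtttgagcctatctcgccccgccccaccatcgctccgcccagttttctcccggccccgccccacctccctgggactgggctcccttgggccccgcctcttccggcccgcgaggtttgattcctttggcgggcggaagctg
Cks1b: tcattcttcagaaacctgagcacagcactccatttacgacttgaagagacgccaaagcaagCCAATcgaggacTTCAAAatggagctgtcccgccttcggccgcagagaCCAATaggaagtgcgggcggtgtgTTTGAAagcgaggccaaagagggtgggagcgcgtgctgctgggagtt
Hjurp: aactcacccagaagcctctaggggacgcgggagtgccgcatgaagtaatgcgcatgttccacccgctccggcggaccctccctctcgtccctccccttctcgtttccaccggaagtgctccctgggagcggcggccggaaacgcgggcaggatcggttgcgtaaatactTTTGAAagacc

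A promoter window of 300 bases, from 250 before to 50 after the start, was found for 39 of the 46 members. The other 7 were Cdca2, Tpx2, Cdc25c, Aurkb, Dlgap5, Ccna2 and Smc4. CHR letters stood in 29 of the 39 windows (74.4%), against 21.7% of the 27025 genes with a window, and the letters CCAAT in 30 (76.9%), against 41.1%. Both stood in 25 (64.1%), against 9.65% of genes, and 24 (61.5%, against 13.3%) held CCAAT more than once. Of the CHR forms, TTTGAA was in 27 members (69.2%, against 20.2%) and TTCGAA in 4 (10.3%, against 1.8%). In the stretches above, the CHR of Cdca8 overlaps a CCAAT box on the other strand, Top2a holds 3 CHR matches and 4 CCAAT matches, and Hjurp has a CHR only after its start. A match is a description of the letters and not of binding.

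Library totals ran from 24514090 to 73626029 counts at 6 h and from 38092275 to 60520413 at 5 d. All 46 members passed the filter on low counts in every fit, with between 25 and 9722 reads in a library, and a floor of 3 counts was 0.0407 to 0.122 CPM (counts scaled to a common library size with TMM factors). That floor covers counting error only. Neuronal markers were high in every library (8 genes summing to 3810 to 5773 CPM), while microglial and endothelial markers were low (8.16 to 25.8 and 2.63 to 11.1 CPM in sum), with Cldn5 at 0 reads in 10 libraries, P2ry12 in 2 and Tek in 1. Reads of Top2a and Ncapd2 can also lie on small genes on the same strand that overlap their exons (Gm23451, and Scarna10 with Gm28967). Those of Ccnb1 and Ccnb2 can also match named pseudogenes. Such reads may have been left out of the counts. The labels call the libraries biological replicates without naming their embryos, so each p-value measures the spread between these libraries.

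Compared per length of exon, the highest member in untreated neurons at 6 h was Hmgb2, a chromatin protein, at 16.9 ± 3.92 CPM per kb, and Cks1b (15.1 ± 2.65) and Hjurp (13.4 ± 0.506) came next, within the spread of one another. The lowest was Cdc25c, the phosphatase that activates CDK1, at 0.883 ± 0.301 CPM per kb. The length used was that of all annotated exons of a gene merged, which can exceed that of the transcript present. The order of the members depends on it. At 5 d Hjurp, the chaperone that loads CENP-A at centromeres, was highest (10.4 ± 0.935) and Cdc25c again lowest (0.258 ± 0.042). Summed over the 46 members, the level at 6 h was 1014 ± 205 CPM in untreated neurons, 1029 ± 206 with miR-92a-1-5p, 886 ± 177 with miR-124-5p and 980 ± 270 with Mut.oligo (SD, n = 4 each). At 5 d the sums were 450.0 ± 9.73, 326 ± 56.7, 362 ± 37.8 and 357 ± 33.0 CPM in the same order. The 4 untreated libraries of 5 d lay between 439 and 462 CPM, and no library of any oligoribonucleotide at 5 d exceeded 408 CPM. Without TMM scaling the untreated sums were 435 to 492 CPM and that of miR-124-5p replicate 1 was 437 CPM, so that the groups then overlapped in this library. In bulk RNA, fewer cycling cells and less RNA per cycling cell cannot be told apart.

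**Figure D1:**
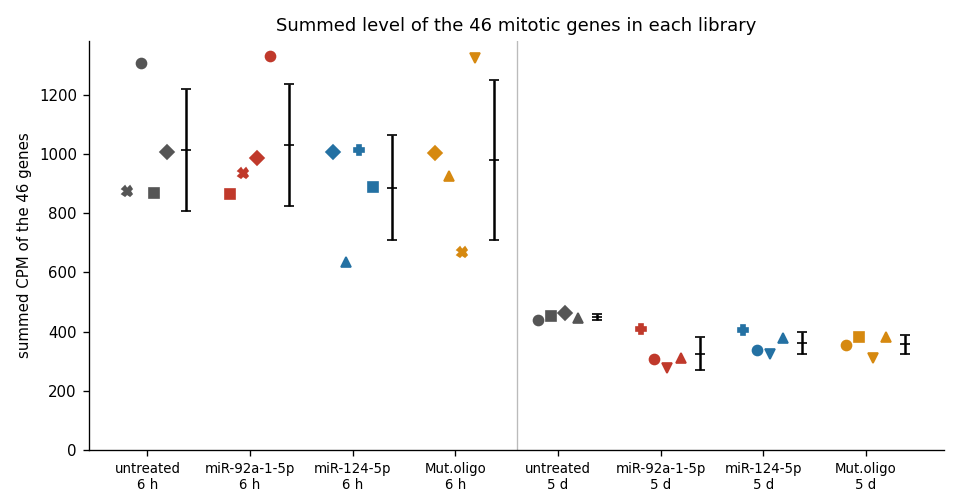
Summed level of the 46 genes in each library (CPM scaled by TMM, y axis from 0) by group (x axis), at 6 h and 5 d, with 1 point per library, the point shape marking the experiment batch within a time point, and the bar giving mean ± SD. The 6 h libraries spread widely inside each group, whereas at 5 d the untreated libraries sit together at 439 to 462 CPM above all 12 exposed libraries.

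Whole libraries moved together at 6 h. In untreated neurons replicate 2 was the highest of its group for 46 of 46 members (26.5% of all genes were highest there), and miR-92a-1-5p replicate 4, of the same batch, was likewise highest for 46. Mut.oligo replicate 4 was highest for 46 and its replicate 3 lowest for 46, and miR-124-5p replicate 2 was lowest for 45. The sums of the oligodendrocyte precursor and of the astrocyte and radial glia markers were lowest of their groups in the same low libraries. They stood at 92.2 and 556 CPM in miR-124-5p replicate 2 and at 83.8 and 569 CPM in Mut.oligo replicate 3. In the libraries highest for 46 members, the oligodendrocyte precursor sum was never the highest of its group. The astrocyte and radial glia sum was highest only in Mut.oligo replicate 4. The intermediate progenitor sum was highest in untreated replicate 2 (71.9 CPM), miR-92a-1-5p replicate 4 (78.4) and Mut.oligo replicate 4 (76.3). It was lowest in miR-124-5p replicate 2 (55.2) and Mut.oligo replicate 3 (52.2). The part of these cells was not tested. The median coefficient of variation of a member within a group was 22.7% to 31.8% at 6 h, against 6.74% to 7.61% for all genes above 1 CPM. At 5 d it was 10.4% in untreated neurons (all genes 9.29%), 25% with miR-92a-1-5p (7.19%), 17.8% with miR-124-5p (11.9%) and 15.3% with Mut.oligo (8.61%). At 5 d replicate 1 of miR-92a-1-5p was the highest of its group for 42 of 46 members (30.5% of all genes), and replicate 1 of miR-124-5p, from the same batch, for 30 (37.3%). That batch held no untreated library. Replicate 2 of Mut.oligo was the highest of its group for 33 (27.9%).

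The first question was how these genes stood in untreated neurons as the culture aged. All 46 were lower at 5 d than at 6 h, with every 5 d library under every 6 h library for all 46 (24.3% of all genes tested did the same), and 45 were called lower by edgeR, that is past 0.05 for the adjusted p and past 0.5 for the size of the log2 fold change. Of all genes, 14.3% were called lower. The median change of the members was −1.39 on the log2 scale, against 0.04 for all genes, and the range was −2.29 (Ube2c) to −0.37 (Hjurp). Time and batch cannot be told apart here, since no batch held both time points. Every role fell. The medians were −1.57 for the CDK1-cyclin group (8 of 8 called), −1.23 for the kinetochore (5 of 6), −1.62 for the checkpoint and anaphase-promoting complex (5 of 5), −1.63 for the passenger complex and other kinases (6 of 6), −1.26 for the spindle (11 of 11), −1.42 for chromosome structure (6 of 6) and −1.23 for cytokinesis (4 of 4).

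Ncapd2, a condensin subunit, had the smallest p. Its levels were 76.3, 93.5, 78.8 and 79.3 CPM at 6 h and 30.4, 34.6, 27.8 and 30.7 CPM at 5 d, scaled over the 32 libraries, a change of −1.41 (SE 0.114, edgeR, Benjamini-Hochberg adjusted p = 1.44e-11). The replicates of each time lay close together and far from those of the other time. Ube2c, the ubiquitin-conjugating enzyme that works with the anaphase-promoting complex, went from 14.3, 29.6, 17 and 19.1 CPM to 3.71, 4.31, 3.84 and 4.45 CPM and fell most, by 2.29 (SE 0.264, edgeR, Benjamini-Hochberg adjusted p = 1.69e-08) on the log2 scale. Its replicate 2 at 6 h was well above the other 3. Cdca8, the passenger complex subunit borealin, went from 15.7, 26, 16 and 18.6 CPM to 6.35, 6.63, 6.11 and 5.84 CPM, a change of −1.62 (SE 0.191, edgeR, Benjamini-Hochberg adjusted p = 2.83e-08). Here too replicate 2 was the highest at 6 h, and the groups did not overlap. Cks1b, a small CDK-binding subunit, went from 15.7, 20.8, 13.9 and 17.6 CPM to 7.46, 8.43, 8.35 and 8.72 CPM, a change of −1.04 (SE 0.11, edgeR, Benjamini-Hochberg adjusted p = 3.20e-09). Its paralog Cks2 moved the same way, by −1.54 (SE 0.191, edgeR, Benjamini-Hochberg adjusted p = 6.65e-08). The exception to the call was Hjurp, at 112, 116, 106 and 113 CPM at 6 h and 84.8, 77.2, 89.1 and 95.8 CPM at 5 d, where the change of −0.37 (SE 0.0933, edgeR, Benjamini-Hochberg adjusted p = 0.00136) passed on p but not on fold.

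**Figure D2:**
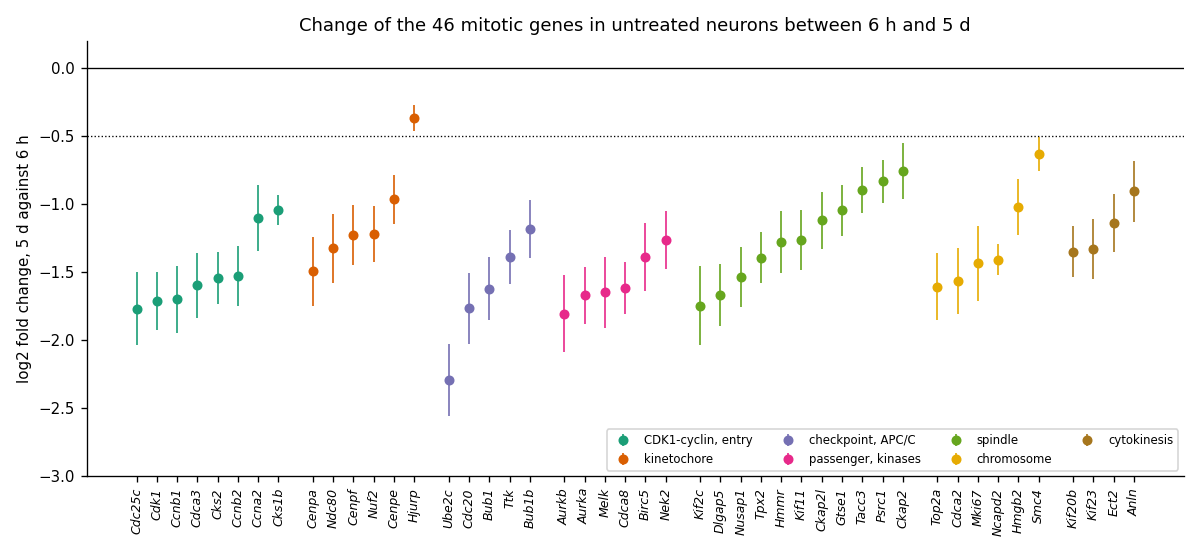
Log2 fold change of each of the 46 genes between 6 h and 5 d in untreated neurons (y axis, 5 d against 6 h, edgeR without a covariate), with bars of 1 SE, genes ordered by change within each role (x axis, colour). All 46 points lie under 0, and Hjurp alone stays above the dotted line at −0.5.

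The same fall was found after each oligoribonucleotide: 46 of 46 members were called lower with miR-92a-1-5p (median −2.02, 15.7% of all genes called lower), 45 with miR-124-5p (−1.57, 14.7%) and 46 with Mut.oligo (−1.69, 15.4%). After miR-92a-1-5p, Ncapd2 went from 79.6, 83.5, 83.8 and 99.5 CPM to 28.8, 23.6, 23.3 and 22.3 CPM, a change of −1.82 (SE 0.115, edgeR, Benjamini-Hochberg adjusted p = 5.35e-14). Dlgap5 went from 6.68, 7.18, 7.46 and 11.7 CPM to 1.69, 1.21, 0.903 and 0.977 CPM, a change of −2.80 (SE 0.246, edgeR, Benjamini-Hochberg adjusted p = 6.73e-11). Dlgap5 encodes a microtubule-binding protein that stabilises spindle fibres at kinetochores. Of the 6 members named for this group, Dlgap5 showed the largest drop, and replicate 4 was its highest library at 6 h. Cdca8 went from 16.9, 16.9, 16 and 24.7 CPM to 5.3, 4.1, 4.16 and 3.98 CPM, a change of −2.09 (SE 0.197, edgeR, Benjamini-Hochberg adjusted p = 2.77e-10). Cdk1 went from 16.3, 15.9, 16.5 and 25.7 CPM to 5.51, 3.1, 2.79 and 3.75 CPM, a change of −2.31 (SE 0.224, edgeR, Benjamini-Hochberg adjusted p = 5.03e-10). In Cdca8 and in Cdk1, the kinase of mitotic entry, replicate 4 was highest at 6 h and replicate 1 highest at 5 d. Top2a went from 79.3, 87.9, 91.9 and 130.2 CPM to 26.2, 15.5, 11.3 and 13.5 CPM, a change of −2.56 (SE 0.254, edgeR, Benjamini-Hochberg adjusted p = 8.87e-10). Nusap1 went from 17, 15.6, 17.8 and 26.4 CPM to 5.66, 2.87, 3.09 and 3.93 CPM, a change of −2.31 (SE 0.231, edgeR, Benjamini-Hochberg adjusted p = 8.96e-10). Top2a encodes the topoisomerase that untangles sister chromatids, and Nusap1 a protein that binds spindle microtubules near chromosomes. No 5 d library reached a 6 h library in any of these 6.

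After miR-124-5p, Ncapd2 went from 82.3, 62.3, 89.4 and 78.7 CPM to 31.3, 26.1, 24.2 and 26.7 CPM, a change of −1.53 (SE 0.114, edgeR, Benjamini-Hochberg adjusted p = 2.50e-12). Dlgap5 went from 9.13, 5.11, 8.89 and 7.23 CPM to 1.92, 1.44, 1.18 and 1.25 CPM, a change of −2.39 (SE 0.241, edgeR, Benjamini-Hochberg adjusted p = 1.28e-09). Both groups were apart, replicate 2 being the lowest at 6 h. Nusap1 went from 17.5, 10, 16.3 and 16.7 CPM to 3.89, 3.01, 3.66 and 4.43 CPM, a change of −2.02 (SE 0.231, edgeR, Benjamini-Hochberg adjusted p = 1.36e-08). Ube2c went from 19.9, 10.4, 16.9 and 15.6 CPM to 4.61, 2.35, 2.45 and 3.11 CPM, a change of −2.33 (SE 0.27, edgeR, Benjamini-Hochberg adjusted p = 1.86e-08). Cdk1 went from 19.4, 11.1, 18.6 and 16.5 CPM to 5.37, 3.94, 3.87 and 4.7 CPM, a change of −1.88 (SE 0.22, edgeR, Benjamini-Hochberg adjusted p = 2.29e-08). The pattern of a low replicate 2 at 6 h recurred in all of these. Aurka went from 9.24, 5.33, 8.79 and 7.86 CPM to 2.68, 1.97, 2.31 and 1.86 CPM, a change of −1.82 (SE 0.215, edgeR, Benjamini-Hochberg adjusted p = 2.52e-08). Levels of Aurka, the Aurora kinase of the spindle poles, were again lower in every 5 d library than in any 6 h library.

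After Mut.oligo, Ncapd2 went from 82.3, 84.6, 64.2 and 98.4 CPM to 24.8, 28.7, 25.2 and 27.1 CPM, a change of −1.64 (SE 0.115, edgeR, Benjamini-Hochberg adjusted p = 4.86e-13). Dlgap5 went from 7.35, 6.98, 4.89 and 10.6 CPM to 1.09, 1.46, 1.17 and 1.36 CPM, a change of −2.55 (SE 0.243, edgeR, Benjamini-Hochberg adjusted p = 3.70e-10). At 6 h replicate 4 was the highest and replicate 3 the lowest in both. Cks1b went from 17.2, 17.8, 14.3 and 17.6 CPM to 7.02, 7.41, 8.74 and 8.15 CPM, a change of −1.09 (SE 0.111, edgeR, Benjamini-Hochberg adjusted p = 1.35e-09). Ube2c went from 16.5, 16.3, 9.38 and 21.2 CPM to 2.39, 3.74, 2.66 and 2.45 CPM, a change of −2.50 (SE 0.272, edgeR, Benjamini-Hochberg adjusted p = 5.28e-09). Cdk1 went from 17.7, 17.1, 10.7 and 24.1 CPM to 4.0, 5.08, 3.91 and 4.35 CPM, a change of −2.0 (SE 0.22, edgeR, Benjamini-Hochberg adjusted p = 6.41e-09). The libraries of the time points did not overlap in these either. Kif23 went from 10.5, 9.41, 7.52 and 16 CPM to 2.79, 2.85, 2.37 and 2.71 CPM, a change of −2.02 (SE 0.23, edgeR, Benjamini-Hochberg adjusted p = 1.31e-08). Kif23 is the kinesin of the central spindle, and its lowest 6 h library stayed above every 5 d library.

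The next question was whether cultures exposed to an oligoribonucleotide for 5 d held less of these transcripts than untreated cultures of the same age. They did on average: 46 of 46 members were lower with miR-92a-1-5p, 45 with miR-124-5p and 46 with Mut.oligo, with medians of −0.63, −0.46 and −0.46, while the median of all genes tested was 0.0 in each. The 3 comparisons share the 4 untreated libraries. In the edgeR fit without a covariate 0 members were called in any of them (all genes 0.00517%, 0.0% and 0.0%), while an unadjusted p under 0.05 was reached by 40, 30 and 34 members, against 3.63%, 2.6% and 2.79% of all genes. With the experiment batch as a covariate, edgeR called 16 members after miR-92a-1-5p, all lower (all genes 0.352%), 0 with miR-124-5p (0.0259%) and 2 with Mut.oligo (0.0466%), with medians of −0.65, −0.45 and −0.39. The share of all genes with an unadjusted p under 0.05 was then 10.8%, 4.79% and 4.2%. DESeq2 with the batch called 24, 8 and 4 (0.61%, 0.0879% and 0.0879% of all genes), and without it 10, 0 and 1 (0.15%, 0.0% and 0.0155%). In the fits with the batch 1 library of 5 d, untreated replicate 3, was alone in its batch and carried no weight. Replicates 1 and 3 of miR-92a-1-5p came from batches without an untreated library. The same was true for replicates 1 and 3 after miR-124-5p and for replicate 3 after Mut.oligo. These 5 d libraries bore on the difference from untreated only indirectly, through other oligoribonucleotides in their batch. The direct comparison for miR-92a-1-5p came from 2 batches. Its replicate 1, the highest of its group for 42 of 46 members, was in neither. The count for miR-92a-1-5p depended on single libraries: with the batch covariate edgeR called 1 member without untreated replicate 1, 6 without miR-92a-1-5p replicate 4, 9 without untreated replicate 4, 10 without miR-92a-1-5p replicate 2 and 28 without miR-92a-1-5p replicate 1. For miR-124-5p it called 8 without miR-124-5p replicate 1. For Mut.oligo it called 2 without untreated replicate 3, which had no weight, and 0 without any other untreated or Mut.oligo library. Without the covariate, 14 were called for miR-92a-1-5p when its replicate 1 was left out. The share of all genes called with a library left out is not given, so these counts show only how far the members' count moved.

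Without any fit, all 4 libraries after miR-92a-1-5p lay under all 4 untreated libraries for 24 of 46 members, against 1.71% of all genes. The same held for 22 members after miR-124-5p (0.947% of all genes) and for 25 after Mut.oligo (1.31%). No member was above untreated in this way after any of the 3, against 226, 133 and 139 of the 19333 genes tested. The list was chosen with earlier results of these data known. The shares of all genes given here and beside the calls above are therefore a description and not an independent test.

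**Figure D3:**
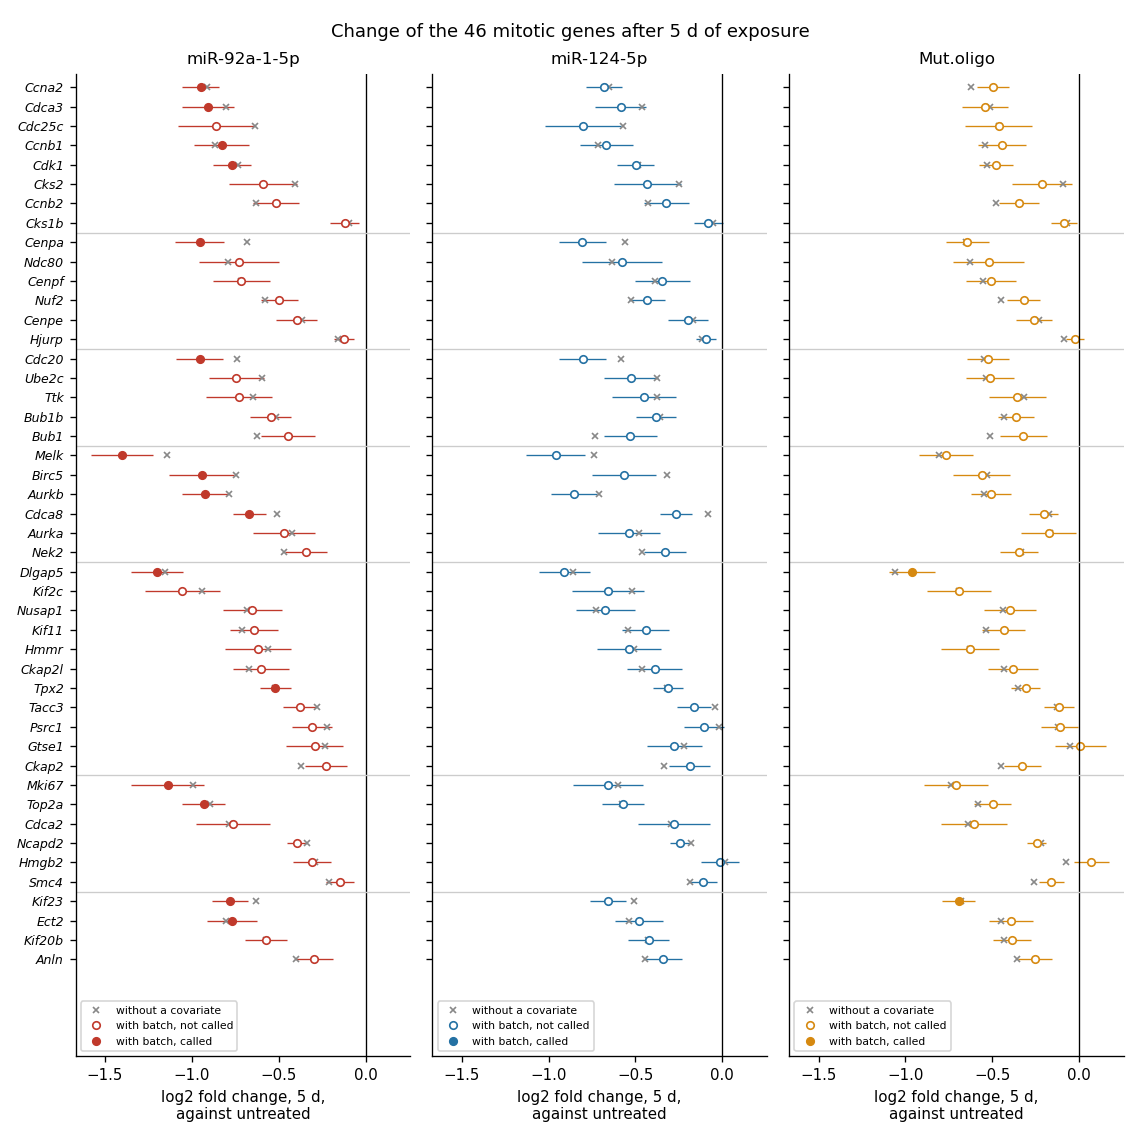
Log2 fold change of each of the 46 genes at 5 d against untreated neurons (x axis) for the 3 oligoribonucleotides, with genes on the y axis grouped into 7 roles by lines. Crosses are edgeR values without a covariate, circles with bars of 1 SE those with the experiment batch as a covariate, filled where called. Nearly all points lie left of 0, with 16, 0 and 2 filled circles.

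By role, calls are those of edgeR with the batch unless DESeq2 is named. Among the 8 genes of the CDK1-cyclin group, 4 were called after miR-92a-1-5p with the batch covariate (Ccna2, Cdk1, Cdca3 and Ccnb1), with a median of −0.80. Ccna2, cyclin A2 (chr3:36564865-36572150, minus strand, GRCm38), stood at 12.1, 14.3, 14.7 and 10.9 CPM in untreated neurons, 10.6, 5.81, 4.72 and 6.58 with miR-92a-1-5p, 12.1, 6.11, 6.93 and 7.99 with miR-124-5p and 7.49, 10.3, 7.43 and 8.59 with Mut.oligo. All 4 miR-92a-1-5p libraries and all 4 Mut.oligo libraries were under every untreated one, while replicate 1 of miR-124-5p lay inside the untreated range. The difference after miR-92a-1-5p was −0.95 (SE 0.106, edgeR, Benjamini-Hochberg adjusted p = 0.00228) with the batch and −0.91 without it. Cdk1 itself went from 6.25 ± 0.663 CPM (SD, n = 4) to 3.77 ± 1.21 CPM (SD, n = 4) with miR-92a-1-5p, a difference of −0.77 (SE 0.11, edgeR, Benjamini-Hochberg adjusted p = 0.00947) with the batch. Cdca3, which helps degrade the inhibitory kinase WEE1, differed by −0.91 and Ccnb1, cyclin B1, by −0.83 in the same fit. Ccnb2, cyclin B2, and Cdc25c gave −0.52 and −0.86, not called. Ccnb1 was one of the 3 members with the smallest p after miR-124-5p, where edgeR called no member: its libraries read 4.98, 6.61, 5.54 and 4.81 CPM untreated and 4.03, 3.02, 2.66 and 3.64 CPM after miR-124-5p, without overlap, a difference of −0.71 (SE 0.206, edgeR, Benjamini-Hochberg adjusted p = 1.0). The paralogs Cks1b and Cks2 are small subunits that bind CDKs, and neither was called. Cks1b read 7.38, 8.43, 8.26 and 8.74 CPM in untreated neurons, 7.65, 7.07, 7.32 and 8.69 with miR-92a-1-5p, 8.06, 6.9, 8.11 and 8.57 with miR-124-5p and 6.98, 7.41, 8.72 and 8.12 with Mut.oligo. Its groups overlapped throughout, and its values against untreated, −0.12, −0.08 and −0.09 with the batch, were the nearest to 0 of the group. Cks2 read 2.06, 2.09, 1.53 and 1.99 CPM in untreated neurons, 1.86, 1.43, 1.42 and 1.09 with miR-92a-1-5p, 1.56, 1.3, 1.56 and 2.06 with miR-124-5p and 1.77, 1.76, 2.02 and 1.65 with Mut.oligo. Replicate 3 of the untreated group was its lowest untreated library and lay inside the exposed range, and the difference after miR-92a-1-5p was −0.59 (SE 0.197, edgeR, Benjamini-Hochberg adjusted p = 0.294).

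Of the 6 centromere and kinetochore genes, Cenpa was called after miR-92a-1-5p (median of the group −0.61 with the batch). Cenpa, the histone variant that marks centromeres, stood at 3.67, 3.75, 3.61 and 4.33 CPM in untreated neurons, 4.01, 1.76, 1.92 and 1.93 with miR-92a-1-5p, 3.54, 2.31, 2.0 and 2.56 with miR-124-5p and 2.77, 2.47, 2.17 and 2.39 with Mut.oligo. Replicate 1 of miR-92a-1-5p lay inside the untreated range, whereas the other 3 and all libraries of the other oligoribonucleotides lay below it. The difference was −0.95 (SE 0.14, edgeR, Benjamini-Hochberg adjusted p = 0.0106) with the batch and −0.68 without it. Ndc80 and Nuf2, partners in the complex that grips microtubules, differed by −0.73 and −0.50, and Cenpf and Cenpe, a kinetochore protein and a kinetochore motor, by −0.72 and −0.40. None of these 4 was called by edgeR, and DESeq2 with the batch called Cenpf. Hjurp read 83.9, 77.3, 88.2 and 96 CPM in untreated neurons, 81.7, 76.4, 69 and 82.8 with miR-92a-1-5p, 77.9, 83.4, 68 and 89 with miR-124-5p and 88, 75, 69 and 93.4 with Mut.oligo. All 4 groups overlapped, and the difference after miR-92a-1-5p was −0.13 (SE 0.0577, edgeR, Benjamini-Hochberg adjusted p = 0.455).

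Of the 5 checkpoint and anaphase-promoting complex genes, Cdc20, the activator of that complex, was called (median of the group −0.73). It stood at 4.81, 5.36, 4.78 and 4.21 CPM in untreated neurons, 4.5, 2.67, 2.15 and 2.18 with miR-92a-1-5p, 4.84, 2.23, 2.64 and 3.1 with miR-124-5p and 3.03, 3.46, 3.31 and 3.31 with Mut.oligo. Replicate 1 of miR-92a-1-5p and of miR-124-5p lay inside the untreated range, and every other exposed library lay below it. The difference after miR-92a-1-5p was −0.96 (SE 0.138, edgeR, Benjamini-Hochberg adjusted p = 0.00947) with the batch and −0.74 without it. The checkpoint kinases Ttk and Bub1 and the pseudokinase Bub1b differed by −0.73, −0.45 and −0.55, and Ube2c by −0.74. edgeR called none of them, and DESeq2 with the batch called Bub1b and Ube2c.

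The passenger complex, which holds Aurora B at centromeres and at the central spindle, and the other mitotic kinases gave 4 calls among 6 genes, with a median of −0.80. Melk, a kinase of cycling progenitors (chr4:44300876-44364675, plus strand), stood at 2.57, 2.55, 2.83 and 2.88 CPM in untreated neurons, 2.17, 0.995, 0.711 and 1.07 with miR-92a-1-5p, 2.3, 1.47, 1.51 and 1.22 with miR-124-5p and 1.38, 1.7, 1.52 and 1.58 with Mut.oligo. Every exposed library was under every untreated one. Replicate 1 of miR-92a-1-5p and of miR-124-5p came nearest to untreated. The difference after miR-92a-1-5p was −1.40 (SE 0.179, edgeR, Benjamini-Hochberg adjusted p = 0.0045) with the batch and −1.15 without it, the largest of the 46 in the former. Cdca8 (chr4:124918465-124939311, minus strand) stood at 6.28, 6.63, 6.05 and 5.85 CPM in untreated neurons, 5.28, 4.06, 4.14 and 3.97 with miR-92a-1-5p, 8.25, 4.71, 5.56 and 4.93 with miR-124-5p and 5.19, 5.71, 5.71 and 5.4 with Mut.oligo. All miR-92a-1-5p and Mut.oligo libraries lay under the untreated range, whereas replicate 1 of miR-124-5p lay above it. Its difference from untreated was −0.67 (SE 0.0945, edgeR, Benjamini-Hochberg adjusted p = 0.00893) with the batch and −0.51 without it. The other called genes were the kinase Aurkb (−0.92) and Birc5, survivin (−0.94), both subunits of the passenger complex. Aurka and Nek2, kinases of the spindle poles, differed by −0.47 and −0.34 and were not called.

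Among the 11 spindle motors and microtubule-binding proteins 2 were called after miR-92a-1-5p, Dlgap5 and Tpx2 (median −0.60), and Dlgap5 was also called after Mut.oligo. Dlgap5 (chr14:47387779-47418407, minus strand) stood at 2.45, 2.51, 2.91 and 2.67 CPM in untreated neurons, 1.68, 1.2, 0.899 and 0.976 with miR-92a-1-5p, 1.94, 1.43, 1.18 and 1.24 with miR-124-5p and 1.08, 1.46, 1.16 and 1.35 with Mut.oligo. No exposed library reached the lowest untreated library. The difference was −1.20 (SE 0.15, edgeR, Benjamini-Hochberg adjusted p = 0.0045) after miR-92a-1-5p and −0.96 (SE 0.132, edgeR, Benjamini-Hochberg adjusted p = 0.0254) after Mut.oligo with the batch, and −1.15 and −1.06 without it. After miR-124-5p it was −0.86 (SE 0.197, edgeR, Benjamini-Hochberg adjusted p = 1.0) without the batch, not called by edgeR, although it had the smallest p of that comparison. Nusap1 was next, at 6.15, 7.32, 6.05 and 5.23 CPM untreated and 3.92, 2.99, 3.65 and 4.41 CPM after miR-124-5p, again without overlap, a difference of −0.73 (SE 0.20, edgeR, Benjamini-Hochberg adjusted p = 1.0). Tpx2, which activates Aurora A on the spindle, read 15 ± 0.907 CPM (SD, n = 4) untreated and 10.4 ± 1.66 CPM (SD, n = 4) with miR-92a-1-5p, a difference of −0.52 (SE 0.0901, edgeR, Benjamini-Hochberg adjusted p = 0.0285) with the batch. The motors Kif11 and Kif2c differed by −0.64 and −1.05, and the smallest differences were those of Ckap2 (−0.23), Gtse1 (−0.29) and Psrc1 (−0.31). The remaining spindle genes Tacc3, Ckap2l and Hmmr gave −0.38, −0.60 and −0.62, and edgeR called none of these 3. DESeq2 with the batch also called Kif2c, Kif11, Nusap1 and Ckap2l of this group.

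Of the 6 chromosome structure genes, Top2a and Mki67 were called after miR-92a-1-5p (median −0.58). Top2a (chr11:98992943-99024189, minus strand) stood at 30.2, 32.5, 30 and 30 CPM in untreated neurons, 26.1, 15.4, 11.2 and 13.5 with miR-92a-1-5p, 24.8, 18.9, 16.4 and 22.1 with miR-124-5p and 20.1, 24.9, 14.4 and 22.4 with Mut.oligo. The untreated libraries were close together and every exposed library was below them, replicate 1 of miR-92a-1-5p being the closest. The difference was −0.93 (SE 0.123, edgeR, Benjamini-Hochberg adjusted p = 0.00525) with the batch and −0.89 without it. Mki67, the Ki-67 protein that coats mitotic chromosomes, read 23.6, 27.2, 21.5 and 27.7 CPM in untreated neurons, 22.9, 10.4, 8.47 and 8.67 with miR-92a-1-5p, 18, 15.4, 13 and 19.5 with miR-124-5p and 16.5, 18.9, 10.5 and 14.1 with Mut.oligo. Replicate 1 after miR-92a-1-5p sat inside the untreated range and the other 3 lay far below it. The difference was −1.14 (SE 0.211, edgeR, Benjamini-Hochberg adjusted p = 0.0348) with the batch and −1.0 without it. The condensin gene Ncapd2 passed on p but not on fold, at −0.40 (SE 0.0587, edgeR, Benjamini-Hochberg adjusted p = 0.0106). Smc4, its partner, Hmgb2 and Cdca2 gave −0.15, −0.31 and −0.76, not called.

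Of the 4 cytokinesis genes, Kif23 and Ect2, an activator of RhoA at the division plane, were called after miR-92a-1-5p (median −0.67), and Kif23 also after Mut.oligo. Kif23 (chr9:61915905-61946774, minus strand) stood at 4.45, 4.46, 4.03 and 4.21 CPM in untreated neurons, 3.8, 2.32, 2.57 and 2.41 with miR-92a-1-5p, 3.84, 2.63, 2.69 and 2.9 with miR-124-5p and 2.77, 2.86, 2.36 and 2.7 with Mut.oligo. Every exposed library lay under every untreated one, and replicate 1 of miR-92a-1-5p and of miR-124-5p were the nearest. The difference was −0.78 (SE 0.106, edgeR, Benjamini-Hochberg adjusted p = 0.00639) after miR-92a-1-5p and −0.69 (SE 0.0945, edgeR, Benjamini-Hochberg adjusted p = 0.0254) after Mut.oligo with the batch, and −0.63 and −0.68 without it. Ect2 differed by −0.77 (SE 0.144, edgeR, Benjamini-Hochberg adjusted p = 0.0371) after miR-92a-1-5p, and Kif20b and Anln, a kinesin and the ring protein anillin, by −0.57 and −0.30. edgeR called neither, and DESeq2 with the batch called Kif20b.

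**Figure D4:**
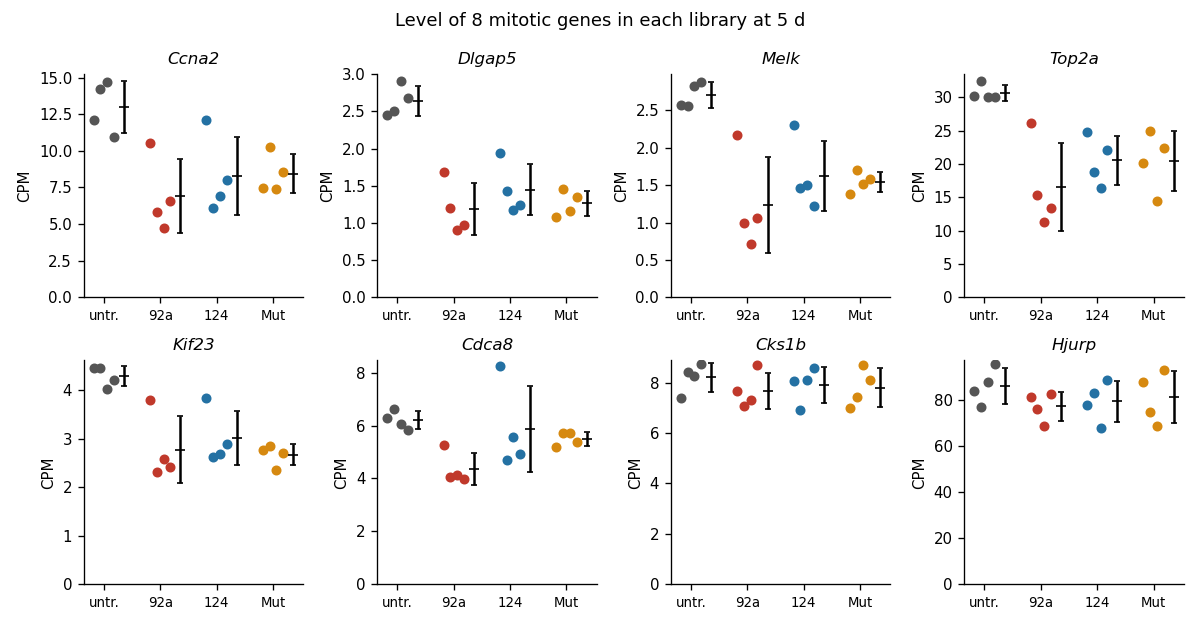
CPM in each library at 5 d (y axes from 0) for 8 genes in untreated neurons (untr.) and with the oligoribonucleotides miR-92a-1-5p (92a), miR-124-5p and Mut.oligo (Mut), with points for libraries and bars for mean ± SD (n = 4). In Dlgap5, Melk, Top2a and Kif23 no exposed point reaches the untreated points, and in Cks1b and Hjurp the groups overlap.

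Within a batch the exposed and the untreated library can be compared directly. At 5 d miR-92a-1-5p shared 2 batches with untreated neurons, and 46 of 46 members were lower in both (medians −0.71 and −0.59, against 0.00 and −0.01 for all genes). miR-124-5p also shared 2, with 46 and 41 members lower (medians −0.64 and −0.36) and 41 lower in both. Mut.oligo shared 3, with 44, 43 and 42 members lower (medians −0.52, −0.28 and −0.35) and 39 lower in all 3. Some of these batches are the same ones, so the untreated library is shared between these values.

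**Figure D5:**
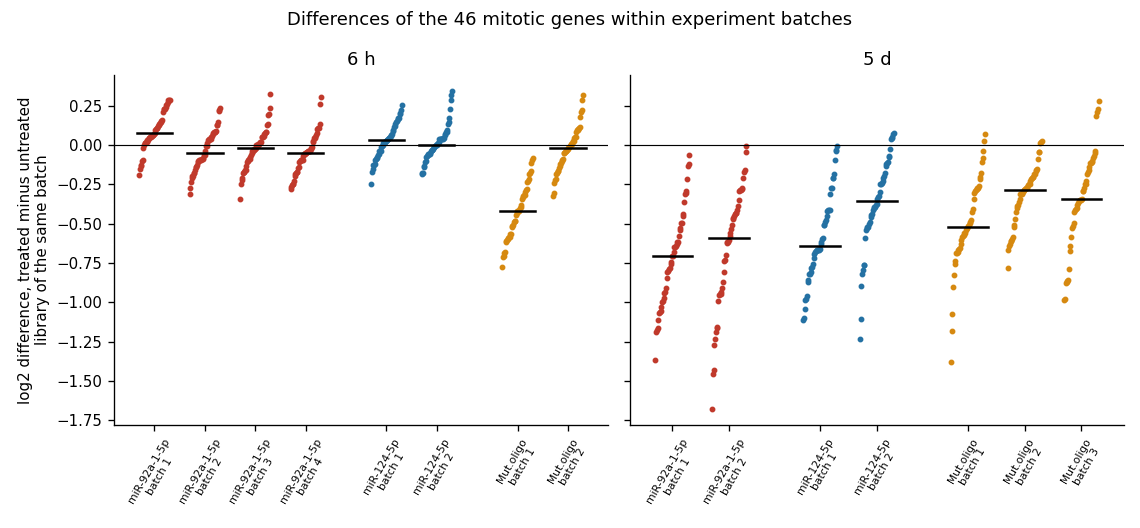
Log2 difference of each of the 46 genes (1 point each) between an exposed library and the untreated library of its batch (y axis), by oligoribonucleotide and batch (x axis), at 6 h and at 5 d, with a bar at the median. At 6 h the medians lie near 0 in 7 of 8 batch pairs, and at 5 d all 7 medians lie between −0.71 and −0.28.

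Whether the oligoribonucleotides differed from each other at 5 d was tested in 3 comparisons, for which edgeR called 0 members, without a covariate (all genes 0.0% in each) or with the batch (0.0103%, 0.0103% and 0.0%), and DESeq2 with the batch also called 0, with Ccna2 and Cdca8 against Mut.oligo passing there on p but not on fold. With the batch, edgeR called 2 members against Mut.oligo and 2 against miR-124-5p without miR-92a-1-5p replicate 1, and 2 against miR-124-5p without miR-124-5p replicate 1. The share of all genes called in these fits is not given either. Against Mut.oligo, miR-92a-1-5p was lower in 42 of 46 members (median −0.17, −0.24 with the batch), with 17 at an unadjusted p under 0.05 in the batch fit (8.87% of all genes) and 1 without the covariate. Against miR-124-5p it was lower in 42 (−0.16, −0.18 with the batch), with 16 (7.68% of all genes) and 2. miR-124-5p against Mut.oligo was lower in 19 (0.04, −0.04 with the batch), with 3 (2.8% of all genes) and 0. Without the covariate, the share of all genes at an unadjusted p under 0.05 is not given for these comparisons. The 95% interval of the difference without a covariate (t distribution, 12 degrees of freedom) held 0 for 45, 45 and 46 members, and its width was 0.403 to 1.19 log2 units. Non-overlapping groups were found for 0 members in each of the 3 comparisons. Of the 19333 genes tested, 179, 170 and 125 were lower and 163, 133 and 120 higher without overlap. These are so few that 0 members says little. Between the 3 batches that miR-92a-1-5p and Mut.oligo shared, 38, 42 and 40 members were lower after miR-92a-1-5p (medians −0.17, −0.31 and −0.27), 32 in all 3. In the 4 batches shared with miR-124-5p the counts were 35, 41, 38 and 25 (−0.13, −0.26, −0.32 and −0.03), 13 in all 4, and miR-124-5p was lower than Mut.oligo in 29, 25 and 23.

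The members with the smallest p between miR-92a-1-5p and Mut.oligo were Cdca8, Ect2 and Ttk, none of which passed. Cdca8, whose library values are given above, differed by −0.34 (SE 0.151, 95% interval −0.67 to −0.01, edgeR, Benjamini-Hochberg adjusted p = 1.0), and all but replicate 1 of miR-92a-1-5p lay under the Mut.oligo libraries. Ect2 read 5.12, 2.92, 2.88 and 3.81 CPM against 4.11, 6.01, 3.79 and 4.87 CPM after Mut.oligo, overlapping, a difference of −0.35 (SE 0.172, 95% interval −0.73 to 0.02, edgeR, Benjamini-Hochberg adjusted p = 1.0). Ttk read 2.09, 1.49, 2.03 and 1.18 against 2.14, 2.57, 1.9 and 1.94 CPM, also overlapping, a difference of −0.33 (SE 0.178, 95% interval −0.72 to 0.06, edgeR, Benjamini-Hochberg adjusted p = 1.0). For miR-92a-1-5p against miR-124-5p they were Cdca8, Cdca2, which recruits a phosphatase to chromatin, and Birc5. Cdca8 differed by −0.43 (SE 0.152, 95% interval −0.76 to −0.10, edgeR, Benjamini-Hochberg adjusted p = 1.0). Cdca2 read 1.86, 1.35, 1.15 and 1.23 CPM against 2.32, 1.48, 1.93 and 2.1 CPM, a difference of −0.49 (SE 0.23, 95% interval −0.99 to 0.01, edgeR, Benjamini-Hochberg adjusted p = 1.0). Birc5 read 2.4, 2.11, 1.69 and 1.88 CPM against 4.24, 1.89, 2.69 and 2.06 CPM, a difference of −0.42 (SE 0.214, 95% interval −0.89 to 0.04, edgeR, Benjamini-Hochberg adjusted p = 1.0), and the highest library of each was replicate 1. All 3 overlapped. Between miR-124-5p and Mut.oligo they were Aurka, Cdca2 and Nusap1. Aurka read 2.71, 1.96, 2.31 and 1.85 CPM against 2.5, 3.0, 2.2 and 3.23 CPM, a difference of −0.31 (SE 0.17, 95% interval −0.68 to 0.06, edgeR, Benjamini-Hochberg adjusted p = 1.0). Cdca2 read 1.34, 2.21, 1.0 and 1.61 CPM after Mut.oligo, a difference of 0.35 (SE 0.226, 95% interval −0.15 to 0.84, edgeR, Benjamini-Hochberg adjusted p = 1.0), and Nusap1 4.17, 5.95, 3.74 and 4.39 CPM, a difference of −0.29 (SE 0.201, 95% interval −0.72 to 0.15, edgeR, Benjamini-Hochberg adjusted p = 1.0). The groups overlapped in all 3.

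After 6 h no member was called against untreated neurons. edgeR called 0 of 46 for each oligoribonucleotide without a covariate (all genes 0.0% in each) and with the batch (0.208% with miR-92a-1-5p, 0.0% with miR-124-5p and 0.0213% with Mut.oligo), and DESeq2 called 0 members with or without the batch (without it, the adjusted p of 37 members after miR-92a-1-5p was NA). An unadjusted p under 0.05 was reached by 0 members in each edgeR fit without a covariate, against 4.75%, 4.54% and 9.49% of all genes, and with the batch by 2 after miR-124-5p and 0 after the other two. At 6 h the share of all genes at such a p is given only for the fits against untreated without a covariate. No share of all genes is given for the DESeq2 calls at 6 h either. Of the 6 h libraries, 2 were alone in their batch and carried no weight in the batch fit. The medians of the members were −0.01, −0.23 and −0.08, with 26, 46 and 37 members lower, and −0.01, −0.12 and −0.06 with the batch. Leaving out single libraries turned the sign of the first and the last, with medians from −0.19 to 0.18 and from −0.29 to 0.10. That of miR-124-5p ranged from −0.32 to −0.04, with 31 members lower without untreated replicate 2 and 36 lower without miR-124-5p replicate 2 (median −0.10). Between oligoribonucleotides edgeR called 0 members without a covariate (all genes 0.0% in each) and with the batch (0.0% in each), with an unadjusted p under 0.05 for 0 members except 2 for miR-92a-1-5p against miR-124-5p with the batch. Within batches miR-124-5p was lower than untreated in 18 and 22 of 46 members (medians 0.03 and 0.00), and its replicate 2, lowest for 45 members, shared a batch with Mut.oligo replicate 2 but with no untreated library. Within batches the medians of miR-92a-1-5p were 0.07, −0.05, −0.02 and −0.05. Those of Mut.oligo were −0.42, with 46 of 46 lower, and −0.02.

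None of the members with the smallest p at 6 h passed. After miR-92a-1-5p they were Cenpe, Mki67 and Gtse1. Cenpe read 14.6, 20.5, 15.4 and 17.5 CPM untreated and 15.2, 17.1, 21 and 22.7 CPM, a difference of 0.16 (SE 0.206, edgeR, Benjamini-Hochberg adjusted p = 0.999). Mki67 read 63.7, 84.7, 55.7 and 67.1 CPM untreated and 54.8, 76.4, 82.7 and 98.2 CPM, a difference of 0.21 (SE 0.264, edgeR, Benjamini-Hochberg adjusted p = 0.999). The groups overlapped in both. Gtse1, a microtubule plus-end protein, read 6.93, 11.2, 6.64 and 7.54 CPM untreated and 5.23, 6.48, 7.42 and 9.85 CPM, a difference of −0.15 (SE 0.198, edgeR, Benjamini-Hochberg adjusted p = 0.999). Untreated replicate 2 was far above the other 3, and without it the difference was 0.05. After miR-124-5p they were Gtse1, Smc4 and Cks2. Gtse1 read 6.85, 4.66, 6.21 and 6.34 CPM, a difference of −0.42 (SE 0.202, edgeR, Benjamini-Hochberg adjusted p = 1.0). Smc4 read 42.6, 58.3, 40.9 and 49.6 CPM untreated and 43.7, 33.1, 43.1 and 41.2 CPM, a difference of −0.25 (SE 0.147, edgeR, Benjamini-Hochberg adjusted p = 1.0). Replicate 2 after miR-124-5p was the lowest in each. Cks2 read 4.97, 7.32, 4.75 and 5.38 CPM untreated and 5.16, 3.38, 5.2 and 4.0 CPM, a difference of −0.33 (SE 0.20, edgeR, Benjamini-Hochberg adjusted p = 1.0). After Mut.oligo they were Melk, Ube2c and Aurka, and in all of them Mut.oligo replicate 3 was lowest and untreated replicate 2 highest. Melk read 6.87, 12.4, 6.94 and 7.88 CPM untreated and 6.36, 6.44, 4.2 and 9.28 CPM, a difference of −0.37 (SE 0.257, edgeR, Benjamini-Hochberg adjusted p = 0.682). Ube2c read 14.3, 29.5, 16.8 and 19.1 CPM untreated and 16.9, 16.3, 9.48 and 21.8 CPM, a difference of −0.31 (SE 0.252, edgeR, Benjamini-Hochberg adjusted p = 0.739). Aurka read 8.46, 13.3, 7.82 and 9.56 CPM untreated and 9.42, 7.69, 4.95 and 10.3 CPM, a difference of −0.28 (SE 0.229, edgeR, Benjamini-Hochberg adjusted p = 0.741).

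Between the oligoribonucleotides at 6 h the members with the smallest p did not pass either, with an edgeR, Benjamini-Hochberg adjusted p of 1.0 for each. miR-92a-1-5p against Mut.oligo gave Melk at 0.28 (SE 0.254), Ccnb2 at 0.25 (SE 0.236) and Aurka at 0.19 (SE 0.227). Ccnb2 read 6.14, 7.28, 7.86 and 9.86 CPM against 7.69, 6.19, 3.75 and 8.66 CPM, and Aurka and Melk 8.27, 7.88, 8.0 and 12.5 CPM and 6.5, 6.86, 7.11 and 11.2 CPM after miR-92a-1-5p. The groups overlapped in each. miR-92a-1-5p against miR-124-5p gave Smc4 at 0.26 (SE 0.146), Nusap1 at 0.34 (SE 0.223) and Cenpe at 0.29 (SE 0.207). Smc4 read 41.4, 43.5, 47.9 and 59.7 CPM after miR-92a-1-5p, Nusap1 16.8, 15.6, 18 and 26.1 CPM against 17.7, 10.2, 16.3 and 16.6 CPM, and Cenpe 17.6, 10.5, 18.4 and 15.6 CPM after miR-124-5p. Replicate 2 of miR-124-5p was the lowest library in all of them. miR-124-5p against Mut.oligo gave Gtse1 at −0.28 (SE 0.204), Smc4 at −0.20 (SE 0.147) and Cenpe at −0.28 (SE 0.21). After Mut.oligo Gtse1 read 6.97, 6.84, 6.14 and 9.39 CPM, Smc4 46.2, 42.3, 37.5 and 59.9 CPM and Cenpe 21.3, 16.7, 11.9 and 26 CPM, overlapping with miR-124-5p in each.

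Whether the fall between 6 h and 5 d was steeper with an oligoribonucleotide than in untreated neurons was tested as an interaction. Without a covariate edgeR called 0 members (all genes 0.0% in each of the 3), with 18 members at an unadjusted p under 0.05 for miR-92a-1-5p (3.92% of all genes). The change was more negative in 46 of 46 members after miR-92a-1-5p (median −0.60), and the medians were −0.23 with miR-124-5p and −0.35 with Mut.oligo. With the batch, 3 members were called for miR-92a-1-5p (all genes 0.137%, and 10.8% at an unadjusted p under 0.05), and 0 for miR-124-5p (0.0049%) and Mut.oligo (0.00979%). They were Dlgap5 at −1.18 (SE 0.21, edgeR, Benjamini-Hochberg adjusted p = 0.0315), Melk at −1.30 (SE 0.253, edgeR, Benjamini-Hochberg adjusted p = 0.0448) and Kif23 at −0.84 (SE 0.17, edgeR, Benjamini-Hochberg adjusted p = 0.0448). DESeq2 with the batch called 16 (all genes 0.465%). Without the batch the same values were −1.13, −1.05 and −0.70. At 6 h Dlgap5 read 6.02, 11.3, 7.43 and 8.85 CPM untreated, and Kif23 8.82, 15.1, 8.91 and 10.5 CPM untreated and 9.45, 9.19, 11.2 and 15.5 CPM with miR-92a-1-5p. The groups overlapped at 6 h in all 3, and their other library values are given above. For miR-124-5p the smallest p values without the batch were those of Dlgap5 at −0.72 (SE 0.325, edgeR, Benjamini-Hochberg adjusted p = 1.0), Nusap1 at −0.48 (SE 0.314, edgeR, Benjamini-Hochberg adjusted p = 1.0) and Mki67 at −0.55 (SE 0.386, edgeR, Benjamini-Hochberg adjusted p = 1.0). For Mut.oligo they were those of Dlgap5 at −0.89 (SE 0.326, edgeR, Benjamini-Hochberg adjusted p = 0.857), Mki67 at −0.97 (SE 0.386, edgeR, Benjamini-Hochberg adjusted p = 0.857) and Kif23 at −0.69 (SE 0.315, edgeR, Benjamini-Hochberg adjusted p = 0.857). None of them passed.

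Members with both promoter elements and the others were compared for these changes. At 5 d after miR-92a-1-5p the median with the batch was −0.64 over the 25 members with both and −0.58 over the 14 with fewer, and between 6 h and 5 d in untreated neurons it was −1.39 and −1.34. The ranges overlapped. The letters that pair with the whole miR-92a-1-5p seed printed above, CCCAACC, were searched in the longest annotated 3′ UTR of each gene. They were found in 0 of 46 members (median UTR 587 bases) and in 10.2% of the 15530 tested genes with a UTR (median 1159 bases), which says only that these letters are not in those windows.

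Other mitotic genes, a list of 64 with further kinesins, condensins and kinetochore subunits, were lower too. In untreated neurons 50 were called lower at 5 d than at 6 h (median −1.02), and 1 higher. At 5 d after miR-92a-1-5p 7 were called with the batch, all lower (median −0.34), led by the kinase Pbk at −0.83 (SE 0.106, edgeR with the batch, Benjamini-Hochberg adjusted p = 0.0045) and the kinesins Kif4 (−0.80) and Kif15 (−0.85), and 0 after miR-124-5p and Mut.oligo (−0.25 and −0.18). Of 15 genes of the anaphase-promoting complex, its coactivator Fzr1 among them, 0 were called at 5 d after any oligoribonucleotide, with a median of −0.05 after miR-92a-1-5p, and over time in untreated neurons 1 was called higher (Anapc15) and 1 lower (Fzr1). Of 16 transcription regulators of mitotic genes, Foxm1, a factor that binds many of these promoters, was the only one called at 5 d, after miR-92a-1-5p. Foxm1 read 8.31, 9.74, 7.8 and 8.49 CPM untreated and 6.96, 5.05, 4.18 and 5.43 CPM after miR-92a-1-5p, without overlap, a difference of −0.63 (SE 0.0839, edgeR with the batch, Benjamini-Hochberg adjusted p = 0.00525). Over time in untreated neurons 7 of the 16 were called lower and 1 was called higher. Among those called, the smallest p values were those of the NF-Y subunit Nfyc (−0.70), the MuvB subunit Lin9 (−1.14) and the pocket protein Rbl2, which rose (0.50). Foxm1 fell by 1.25 on the log2 scale. Tfdp1 (−0.41) and E2f4 (−0.46) had a smaller p than Rbl2 and passed on p but not on fold. In the fit without a covariate 0 genes of any of these lists, or of the cell type markers, were called against untreated at 6 h or 5 d.

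Markers of other cells moved with some of these results. Of 6 oligodendrocyte precursor markers, 4 were called lower at 5 d after miR-92a-1-5p with the batch (median −1.19), 2 with miR-124-5p (−0.89) and 1 with Mut.oligo (−0.71), and their sums were 140 to 173 CPM untreated, 60 to 136 with miR-92a-1-5p, 86.9 to 152 with miR-124-5p and 96.8 to 112 with Mut.oligo, none of them at 0. Pdgfra, a receptor of these precursors, read 30.5, 36.3, 33.5 and 24.8 CPM untreated, 30.9, 7.7, 6.93 and 8.32 with miR-92a-1-5p, 21.6, 9.45, 7.83 and 10.5 with miR-124-5p and 9.5, 14.6, 7.0 and 10.1 with Mut.oligo. Replicate 1 of miR-92a-1-5p, the library in which 42 members were highest, was in the untreated range, and the other 3 were far below it. The difference was −1.58 (SE 0.151, edgeR with the batch, Benjamini-Hochberg adjusted p = 0.000636) after miR-92a-1-5p. Olig2, a factor of the same lineage, read 32.5, 29.5, 28.1 and 27.1 CPM untreated and 23.1, 14.3, 12.1 and 13.1 CPM after miR-92a-1-5p, without overlap, a difference of −1.07 (SE 0.0771, edgeR with the batch, Benjamini-Hochberg adjusted p = 0.000104). The part of these cells in the change of the mitotic genes was not tested. Kdr of the 6 endothelial markers was called lower after each oligoribonucleotide, Tagln of the 7 mural markers after each and Acta2 after miR-92a-1-5p, and their part was not tested. Of the neuronal (8), astrocyte and radial glia (8), intermediate progenitor (4 tested of 5) and microglial (7) markers, 0 were called, with medians of 0.09, −0.21, −0.20 and −0.19 after miR-92a-1-5p. Between 6 h and 5 d in untreated neurons, 6 of 8 astrocyte and radial glia markers were called higher (median 1.24, sums 711 to 1230 and 1905 to 2792 CPM), and 3 of 4 intermediate progenitor markers lower (Insm1, Neurog2 and Eomes, median −1.63, sums 58.5 to 71.9 and 24.1 to 34.6 CPM), with Neurog1 at 0 reads in 26 of the 32 libraries. Of the oligodendrocyte precursor markers 3 were called lower, of the microglial ones 2 higher and of the endothelial ones 1 higher. Of the mural ones 3 were called higher and 1 lower, and of the neuronal ones 1 in each direction. How far such changes of cell makeup entered the fall of the mitotic genes was not tested.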

How the data were processed

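Poly(A) RNA of 32 cultures was sequenced as stranded libraries. The authors aligned the reads to the mouse genome GRCm38 with STAR and counted them per gene with featureCounts, by exon and on the reverse strand. The deposited values are these raw counts per gene, not normalized, with 49671 gene IDs, of which 49326 had a symbol in the annotation used. Testing was limited to genes reaching 5 counts in 3 or more libraries (18755 at 6 h, 19333 at 5 d and 20425 over both), and depth is given in the report. edgeR 4.0.16 (R 4.3.3, limma 3.58.1) was fitted with TMM scaling and its quasi-likelihood test, on the 16 libraries of a time point, or on all 32 for change over time, with no covariate and with Benjamini-Hochberg adjustment over all genes. A gene was called at an adjusted p under 0.05 with a log2 fold change beyond 0.5. Alternative fits used a batch covariate, DESeq2 1.42.0 with and without it, a replicate block, another scaling, other filters on low counts, only the groups compared, and each library left out. Leaving out libraries of 5 d with the batch covariate was chosen after seeing the data. Batch and time cannot be told apart. Library values were given for at most 6 called members with the smallest p per comparison and fit, otherwise for the 3 with the smallest p, which had not passed, and for at most 4 per direction over time in untreated neurons. Other members were given by role. Values of Cenpa, Cdc20 and Mki67 at 5 d were added after their values were seen. Of other lists, called genes were counted and at most 3 named. The members and the lists were chosen with earlier results of these data known. The scripts were tested on simulated data. No label ties equal replicate numbers to a shared culture or day, and the deviations of same-numbered libraries correlated at −0.40 to 0.47 at 6 h and −0.40 to 0.69 at 5 d over 24 pairs each (medians −0.13 and 0.21). Libraries of the same batch, which at 5 d include replicate 4 of all groups, correlated at 0.17 to 0.62 and 0.03 to 0.69 (medians 0.49 and 0.40).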

Additional observations from a re-analysis of the deposited data

Results flagged for a closer look

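In 16 of 200 groups of 4 libraries examined (24 named members and the sum of all 46 in 8 groups), 1 library lay apart from the other 3 beyond the 95% critical value of Dixon's test, which chance alone passes in about 1 in 20 groups. The 200 come from the same 32 libraries, in which the members moved together, so they are not independent. Their number cannot be weighed against that rate. At 6 h after miR-92a-1-5p, replicate 4 was above the rest for Aurka at 12.5 CPM (next 8.27), Birc5 at 10.7 CPM (next 7.88), Cdca2 at 10.1 CPM (next 6.77), Cdca8 at 24.4 CPM (next 16.9), Cdk1 at 25.5 CPM (next 16.8) and Melk at 11.2 CPM (next 7.11). At 6 h after miR-124-5p, replicate 2 was below the rest for Ccnb1 at 9.57 CPM (next 15.1), Ccnb2 at 4.51 CPM (next 6.86) and Nusap1 at 10.2 CPM (next 16.3). At 6 h after Mut.oligo, replicate 3 was below the rest for Cks1b at 14.5 CPM (next 17.5). At 5 d, replicate 1 after miR-92a-1-5p was above the rest for Cdca8 at 5.28 CPM (next 4.14), and replicate 2 after miR-124-5p below it for Cenpe at 6.66 CPM (next 8.01) and Ect2 at 3.85 CPM (next 4.55). Replicate 3 after Mut.oligo was below the rest for Smc4 at 23 CPM (next 26.4). In untreated neurons of 5 d, replicate 3 was below the rest for Cks2 at 1.53 CPM (next 1.99) and replicate 2 above it for Top2a at 32.5 CPM (next 30.2). The change over time differed between miR-92a-1-5p and untreated neurons in the edgeR fit with the batch for Kif23 (−0.84), Melk (−1.30) and Dlgap5 (−1.18). It did not pass for any of these 3 without the batch. The time points came from different batches. A difference from untreated that varied between batches therefore cannot be told apart from one that varied with time.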

How the results depend on the processing

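Of 336 recomputed counts of called members, 326 stayed within 1.5 times of the reported count. The others were each 0 in the edgeR fit without a covariate. Many of the 326 compared 0 with 0, as at 6 h, or 44 to 46 with 45 or 46, as over time. Their agreement therefore says little about the differences from untreated at 5 d. For miR-92a-1-5p at 5 d the count was 16 with the experiment batch in edgeR, 24 with it in DESeq2 and 10 in DESeq2 without it, and 0 to 14 when single libraries were left out. For miR-124-5p at 5 d it was 8 in DESeq2 with the batch. For Mut.oligo at 5 d it was 2, 4 and 1 in the same order as for miR-92a-1-5p. The change over time after miR-92a-1-5p against that in untreated neurons gave 3 and 16 members with the batch in edgeR and DESeq2. The cause was not tested. Added after seeing the data, leaving out single libraries of 5 d with the batch gave 1 to 28 members for miR-92a-1-5p, 0 to 8 for miR-124-5p, 0 to 2 for Mut.oligo, and 0 to 2 for miR-92a-1-5p against each of the other oligoribonucleotides. For fits with a library left out, the share of all genes called is not given. Of 1123 recomputed values of single members, 34 became called, all lower, and 2 turned in sign: Gtse1 after miR-92a-1-5p against untreated at 6 h was 0.048 without untreated replicate 2 (−0.34 to 0.048 over the libraries left out), and Aurka between miR-92a-1-5p and Mut.oligo at 6 h was −0.0069 without miR-92a-1-5p replicate 4 (−0.0069 to 0.33). With the replicate number as a replicate block, which the labels do not tie to a culture, edgeR called 0 members against untreated and between oligoribonucleotides at 6 h and at 5 d, 0 for the difference in change over time, and 45, 46, 45 and 46 for the change over time in untreated neurons and in neurons with miR-92a-1-5p, with miR-124-5p and with Mut.oligo. The block changed no call. At 4 libraries a group, the intervals between oligoribonucleotides given above limit what could be detected.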
